A study of Mus musculus with 6 samples.

Results

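The 36 genes described here are classical markers of endothelial cells, the cells that line blood and lymphatic vessels. They were chosen as the array's non-control probes named for one of the 36 genes or an older synonym, with each gene represented by its probe of highest mean Cy5 signal. All 36 were found among the 27670 genes on the array, and all 36 passed the filter on dim probes that left 24834 genes. Each of the 6 arrays compared 1 mouse mammary sample, labelled with Cy5, against a common reference labelled with Cy3, Universal Mouse Reference RNA pooled from 11 mouse cell lines, so every level below is a log2 ratio to that reference. All samples came from virgin C57/B6 mice that were either wild type (WT) or DNP63 KO heterozygous (het), that is, with 1 of the 2 copies of the ΔN form of p63 knocked out, p63 being a transcription factor of basal epithelium. For each genotype there was 1 array of the CD24+CD29hi subpopulation P4, which the labels call enriched for mammary stem cells (MaSC), 1 of the CD24+CD29lo subpopulation P5, called enriched for luminal progenitors, and 1 of total mammary epithelial cells (MEC) with no enrichment. The series' design sets these 3 populations and 2 genotypes side by side to follow ΔNp63 in mammary stem cell activity. How many mice gave each RNA, and their age, are not stated in the labels.

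Endothelial cells hold together through junction proteins such as VE-cadherin (Cdh5) and claudin 5 (Cldn5), take growth signals through the VEGF receptors (Kdr, Flt1, Flt4) and the Tie receptors (Tek, Tie1), and keep their identity through transcription factors of the ETS and SOX families. In the mammary gland they form the capillaries and lymphatics of the stroma and fat pad, outside the bilayered epithelium that the CD24 and CD29 sort is meant to collect. A gland that is digested into single cells releases them together with fibroblasts, pericytes and leukocytes. No sample here is labelled endothelial.

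Of the 36 members, 35 were well above background in Cy5 on all 6 arrays. The exception was Tie1, which was not well above background on WT P4. On the individual arrays, 74.3% to 89.8% of the non-control spots were well above background. The sorted populations differed from MEC in epithelial markers. All 8 basal epithelial genes were higher in P4 than in MEC, and 7 of 8 luminal genes were lower. In P5, 5 of 8 basal genes were lower than in MEC, while 0 of 8 luminal genes passed as higher, their differences lying between 0.21 and 1.70 (median 0.94). The array's probe for Trp63, the targeted gene, had log2 ratios of 5.99 and 5.48 on WT and het P4, 0.54 and 0.89 on P5, and 3.71 and 2.66 on MEC. Het was thus below WT in P4 and MEC and above it in P5. Whether that probe lies in the deleted part of the gene is not given in the sources used here, so it does not check the labels. The 4 sorted arrays lay on 1 slide and both MEC arrays on another, so population (sorted against MEC) and slide cannot be told apart. Position on the slide followed genotype, with each WT array printed ahead of the het array of its population, and these cannot be told apart either.

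The sequences upstream of the members' start sites are given here as description, and their part in the differences between populations was not tested. RefSeq (GRCm38.p6) promoter windows were matched for 19 of the 36 members, 25 windows in all. The 4 shown belong to the members with a window that lay furthest below MEC in the sorted cells: Cd34, a sialomucin of vessel lining and progenitor cells, Flt1 and Kdr, the VEGF receptors 1 and 2, and Emcn, the endothelial sialomucin endomucin. Each is the 250 bases before the start, 5′ to 3′ on the strand of the gene, with ETS motif matches (AGGAAG or CGGAAG on either strand, overlapping matches included) in capitals.
Cd34 (chr1:194938571-194938820, plus strand): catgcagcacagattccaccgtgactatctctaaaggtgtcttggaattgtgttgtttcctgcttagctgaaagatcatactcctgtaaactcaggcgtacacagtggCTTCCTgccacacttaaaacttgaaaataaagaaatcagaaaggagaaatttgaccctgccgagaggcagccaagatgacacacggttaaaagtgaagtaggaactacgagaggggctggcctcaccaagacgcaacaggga
Flt1 (chr5:147726012-147726261, minus strand): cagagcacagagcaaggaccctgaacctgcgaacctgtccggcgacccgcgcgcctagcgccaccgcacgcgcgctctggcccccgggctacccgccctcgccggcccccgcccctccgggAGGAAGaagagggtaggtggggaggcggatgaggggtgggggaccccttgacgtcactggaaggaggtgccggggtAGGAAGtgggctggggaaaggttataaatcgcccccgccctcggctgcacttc
Kdr (chr5:75978456-75978705, minus strand): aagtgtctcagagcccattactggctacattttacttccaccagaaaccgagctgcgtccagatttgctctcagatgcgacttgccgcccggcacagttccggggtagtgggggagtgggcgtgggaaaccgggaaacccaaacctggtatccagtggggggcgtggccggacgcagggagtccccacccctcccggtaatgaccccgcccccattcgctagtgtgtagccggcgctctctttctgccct
Emcn (chr3:137340828-137341077, plus strand): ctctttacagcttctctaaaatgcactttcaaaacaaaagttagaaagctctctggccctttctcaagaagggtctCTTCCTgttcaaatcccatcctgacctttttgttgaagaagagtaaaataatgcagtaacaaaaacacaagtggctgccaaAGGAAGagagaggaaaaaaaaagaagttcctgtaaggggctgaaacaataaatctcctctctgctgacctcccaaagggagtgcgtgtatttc
Flt1 and Emcn each held 2 ETS matches, Cd34 held 1 and Kdr none. Over all members with a window, 10 of 19 genes (11 of 25 windows) held a match, while 39.2% of all 32851 RefSeq windows of the same length did. The SOX motif (ACAAAG or ACAATG, either strand) was in 7 of 25 member windows and in 25.2% of all, and the GATA motif (AGATAA or TGATAA, either strand) was in 5 of 25 and in 16.6% of all. These shares are descriptions of the letters in the windows.

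Endothelial markers were lower in both sorted populations than in total MEC. In P4, 26 of the 36 members fell and 0 rose (limma on all 6 arrays with population and genotype as terms, 2 residual degrees of freedom, adjusted p under 0.05 by Benjamini-Hochberg over all 24834 genes). Of all genes, 18% were called in that comparison, 8.52% lower and 9.52% higher. In P5, 28 of the 36 fell and 0 rose, where 6.4% of all genes were called, 4.28% lower and 2.11% higher. The median difference of the members from MEC was -1.46 on the log2 scale in P4 (all genes 0.05) and -1.78 in P5 (all genes 0.02). Fitted differences were below 0 for 33 members in P4 (44.1% of all genes) and for 34 in P5 (47.3% of all genes). For 30 members all 4 sorted arrays lay below both MEC arrays, an order that 12.3% of all genes had. In these bulk samples, fewer cells of a type and less RNA per cell cannot be told apart. Both comparisons use the same 2 MEC arrays, so they are not independent of each other. With the scanner's local backgrounds taken as given, the setting first planned, 22 members fell in P4 and 23 in P5 and 0 rose, where 7% and 4.13% of all genes were called. The calls lost there were Fli1, Mmrn1, Nos3 and Tie1 in P4 (adjusted p = 0.0509 to 0.0959) and Mmrn2, Nos3, Robo4, Tie1 and Vwf in P5 (0.0507 to 0.137). With the scanner software's own log ratio, Sele and Erg did not pass in either population, Ramp2 and Mmrn1 did not pass in P4, and Robo4 did not pass in P5.

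**Figure D1:**
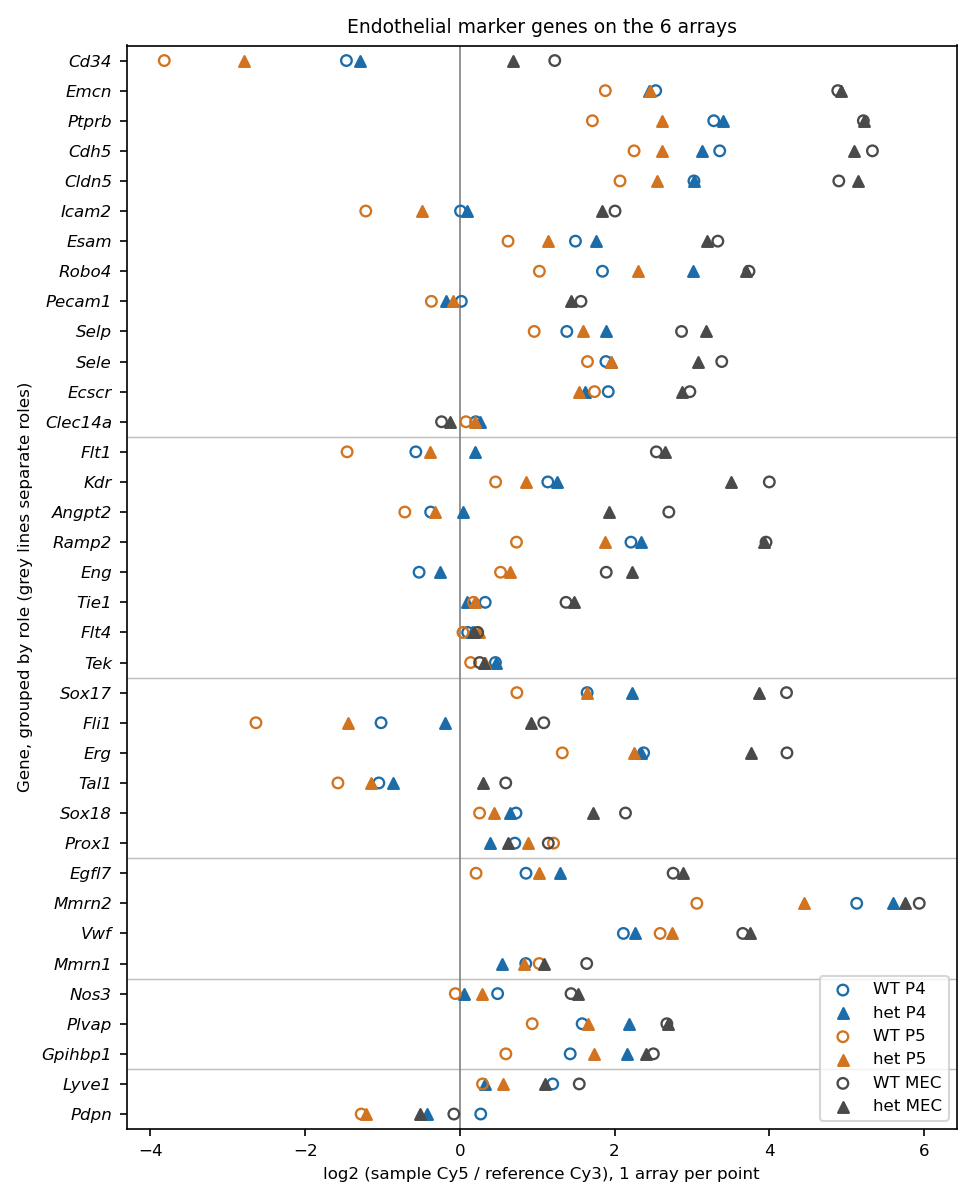
Log2 ratio of sample Cy5 over reference Cy3 for each of the 36 members (rows, grouped by role) on each of the 6 arrays (1 point per array; open circles WT, filled triangles het; blue P4, orange P5, grey MEC). For 30 members both grey points lie to the right of all 4 coloured points, and Clec14a, Tek, Flt4, Prox1, Lyve1 and Pdpn are the rows where they do not.

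Of the 13 genes of junctions and surface adhesion, 11 fell in P4 and 12 in P5. Cd34 had log2 ratios of 1.23 on WT MEC and 0.68 on het MEC, -1.47 and -1.29 on WT and het P4, and -3.82 and -2.78 on WT and het P5. Both MEC arrays stood above the reference and all 4 sorted arrays below it, with P5 lowest. The difference from MEC was -2.33 ± 0.37 (SE) in P4 (limma adjusted p = 0.0199) and -4.26 ± 0.37 in P5 (adjusted p = 0.0128), the largest fall of any member in P5. Emcn stood at 4.89 on WT MEC and 4.93 on het MEC, against 2.53 and 2.45 in WT and het P4 and 1.88 and 2.45 in WT and het P5. Those MEC arrays differed from each other by 0.04, and the sorted arrays lay at least 2 units lower: the fitted differences were -2.41 ± 0.20 (P4) and -2.74 ± 0.20 (P5).

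Cdh5, the cadherin of endothelial adherens junctions, had 5.33 and 5.09 on WT and het MEC, 3.36 and 3.13 on WT and het P4, and 2.25 and 2.62 on WT and het P5. It fell by 1.97 ± 0.20 in P4 (limma adjusted p = 0.00851) and by 2.78 ± 0.20 in P5 (adjusted p = 0.0121). Cldn5, the claudin of endothelial tight junctions, had 4.90 and 5.14 on WT and het MEC, 3.03 on both P4 arrays, and 2.07 and 2.55 on WT and het P5. By the probes used, the groups did not overlap for either junction gene, and P4 lay between MEC and P5 in both. The second Cdh5 probe, well above background on all 6 arrays, gave -0.81 in P4 and -0.89 in P5. By that probe P4 and P5 were 0.08 apart. Ptprb, a receptor phosphatase that acts on VE-cadherin and Tie2, had 5.22 and 5.23 on WT and het MEC, 3.28 and 3.41 on P4, and 1.71 and 2.61 on P5, a difference of -1.88 ± 0.25 in P4 and -3.06 ± 0.25 in P5. Its other probes, from bright to dim, gave -0.98, -0.20 and -0.16 in P4. In P5 they gave -0.93, -0.15 and -0.08. Icam2, an adhesion ligand for leukocyte integrins, had 2.01 and 1.84 on MEC, 0.01 and 0.09 on P4, and -1.22 and -0.49 on P5.

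The same order, MEC above P4 above P5, held in the means of Esam and Robo4. The activation selectins Sele and Selp, which catch leukocytes at inflamed vessels, fell by 1.32 ± 0.18 and 1.39 ± 0.14 in P4 and by 1.43 ± 0.18 and 1.75 ± 0.14 in P5. Pecam1, the platelet and endothelial adhesion molecule CD31, fell by 1.58 ± 0.17 in P4 and 1.73 ± 0.17 in P5. Ecscr, a surface protein of endothelial migration, had 2.97 and 2.87 on WT and het MEC and between 1.54 and 1.92 on the 4 sorted arrays. Robo4, a guidance receptor that stabilises vessels, had 3.74 and 3.70 on MEC, 1.84 and 3.01 on WT and het P4, and 1.03 and 2.30 on WT and het P5. It fell in P5 (-2.06 ± 0.34, limma adjusted p = 0.0374) and did not pass in P4 (-1.29 ± 0.34, adjusted p = 0.0604), where WT and het lay 1.17 apart.

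**Figure D2:**
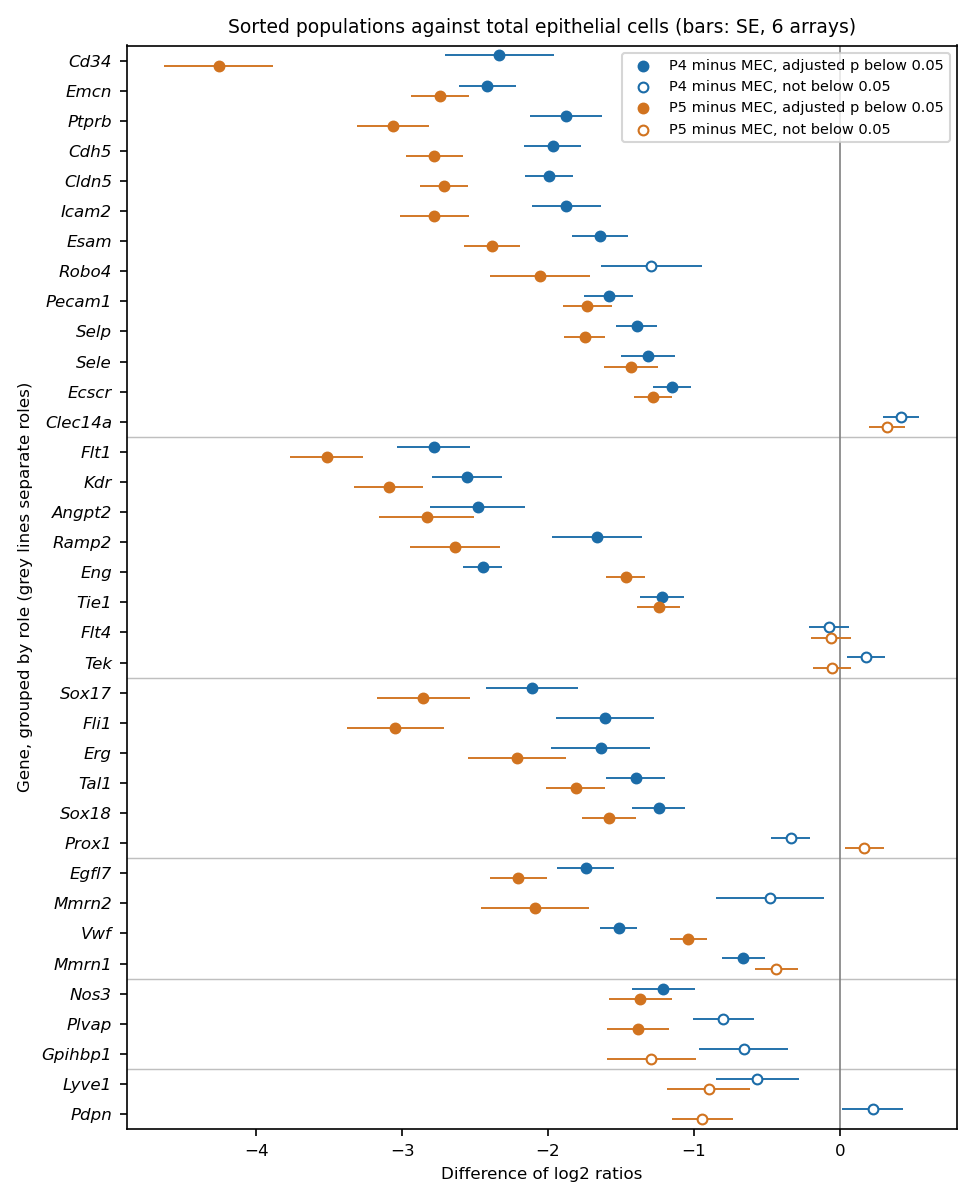
Fitted difference of log2 ratios from MEC for each member (blue P4, orange P5; horizontal bars 1 SE from the limma fit on 6 arrays; filled points have an adjusted p below 0.05). Filled points number 26 for P4 and 28 for P5, and all of them lie to the left of 0.

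Of the 8 growth factor receptor and ligand genes, 6 fell in each sorted population, with a median of -2.06 in P4 and -2.05 in P5. Flt1, the VEGF receptor 1, had 2.54 and 2.65 on WT and het MEC, -0.57 and 0.19 on WT and het P4, and -1.46 and -0.38 on WT and het P5. By its brightest probe it was 6.89-fold lower in P4 (-2.78 ± 0.25, limma adjusted p = 0.00736) and 11.5-fold lower in P5 (-3.52 ± 0.25, adjusted p = 0.0121). Its other probes, from bright to dim, gave -3.02, -2.54, 0.45 and -0.06 in P4. In P5 they gave -3.46, -2.71, 0.14 and -0.13. Kdr, the main signalling VEGF receptor, had 4.00 and 3.51 on MEC, 1.14 and 1.26 on P4, and 0.46 and 0.86 on P5, 5.88-fold lower in P4 and 8.53-fold lower in P5. By the probe used, neither receptor had a sorted array within 2 units of a MEC array.

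Angpt2, the Tie2 ligand that endothelial cells store and secrete, had 2.70 and 1.93 on WT and het MEC, -0.38 and 0.05 on P4, and -0.71 and -0.32 on P5. The difference was -2.48 ± 0.33 in P4 and -2.83 ± 0.33 in P5. Ramp2, which pairs with the calcitonin receptor-like receptor to bind adrenomedullin, had 3.96 and 3.93 on MEC, 2.21 and 2.35 on P4, and 0.73 and 1.88 on P5. Eng, the TGF-beta co-receptor endoglin, had 1.89 and 2.22 on MEC, -0.53 and -0.25 on P4, and 0.53 and 0.65 on P5. Eng departed from the usual order, with P4 below P5. Tie1, the orphan Tie receptor, fell by 1.22 ± 0.15 in P4 and 1.24 ± 0.15 in P5. Its WT P4 signal was not well above background, and a bound on the fold between the P4 arrays could not be set.

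Among the 6 transcription factor genes, 5 fell in both sorted populations. Sox17, an arterial SOX factor, had 4.22 and 3.87 on WT and het MEC, 1.65 and 2.23 on P4, and 0.74 and 1.65 on P5, a difference of -2.11 ± 0.32 in P4 and -2.85 ± 0.32 in P5. Its other probes, from bright to dim, gave -0.75, -0.09 and 0.13 in P4. In P5 they gave -1.11, -0.10 and 0.0008. Fli1, an ETS factor of endothelium and blood, had 1.09 and 0.92 on MEC, -1.02 and -0.19 on P4, and -2.64 and -1.45 on P5. In P5 it was 8.26-fold below MEC (-3.05 ± 0.33, limma adjusted p = 0.017) and in P4 3.05-fold (-1.61 ± 0.33, adjusted p = 0.0349). The ETS factor Erg fell by 1.64 ± 0.34 in P4 and 2.21 ± 0.34 in P5, Sox18 by 1.24 ± 0.18 and 1.58 ± 0.18, and Tal1, a helix-loop-helix factor shared with blood, by 1.40 ± 0.20 and 1.81 ± 0.20. The sixth, Prox1, is the lymphatic master regulator and is described with the lymphatic genes.

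Of the 4 secreted and matrix genes, 3 fell in each sorted population. Egfl7, a matrix protein laid down by sprouting vessels, fell by 1.74 ± 0.20 in P4 and 2.21 ± 0.20 in P5. Vwf, the von Willebrand factor of endothelial storage granules, fell by 1.52 ± 0.12 in P4 and by 1.04 ± 0.12 in P5. Mmrn2, a multimerin of the vessel matrix, had 5.94 and 5.76 on WT and het MEC, 5.13 and 5.61 on WT and het P4, and 3.06 and 4.46 on WT and het P5. It was below MEC in P5 (-2.09 ± 0.37, limma adjusted p = 0.043), and in P4 the difference was -0.48 ± 0.37 (adjusted p = 0.416). Mmrn1, a multimerin found in platelets and lymphatic endothelium, had 1.64 and 1.09 on WT and het MEC, 0.85 and 0.55 on P4, and 1.03 and 0.83 on P5. It passed in P4 (-0.66 ± 0.15, adjusted p = 0.0409) and not in P5 (-0.44 ± 0.15, adjusted p = 0.153). The P4 call ended with local background as given (adjusted p = 0.0564), an offset of 0 (0.0797), the scanner log ratio (0.207) and median centring (-0.31, adjusted p = 0.154), and with any array but het MEC left out. Among the 3 genes of capillary specialisation, Nos3, the endothelial nitric oxide synthase, fell in both (-1.21 ± 0.21 and -1.37 ± 0.21), Plvap, the diaphragm protein of fenestrated capillaries, fell in P5 (-1.38 ± 0.21) and was at -0.80 ± 0.21 in P4 (adjusted p = 0.0582), and Gpihbp1, the capillary anchor of lipoprotein lipase, passed in neither (-0.66 ± 0.30 and -1.29 ± 0.30, adjusted p = 0.193 and 0.0746).

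Genes of the lymphatic lining behaved less uniformly. Flt4, the VEGF-C receptor of lymphatics, had log2 ratios between 0.04 and 0.25 on all 6 arrays, and its differences from MEC were -0.07 ± 0.14 in P4 and -0.06 ± 0.14 in P5. Lyve1, the lymphatic hyaluronan receptor, had 1.54 and 1.11 on WT and het MEC, 1.20 and 0.32 on WT and het P4, and 0.29 and 0.56 on WT and het P5. WT P4 lay above het MEC, so the groups overlapped, and neither difference passed (-0.57 ± 0.28, limma adjusted p = 0.227; -0.90 ± 0.28, adjusted p = 0.135). Prox1 had 1.14 and 0.63 on MEC, 0.71 and 0.38 on P4, and 1.21 and 0.89 on P5, with MEC inside the range of the sorted arrays; with median centring in place of loess it passed as higher in P5 (0.51, adjusted p = 0.0361). Pdpn, the mucin podoplanin, had -0.08 and -0.52 on WT and het MEC, 0.27 and -0.42 on P4, and -1.28 and -1.21 on P5. Podoplanin is also made by basal epithelial cells, and its P4 arrays overlapped MEC (0.22 ± 0.21, adjusted p = 0.507).

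The members on which neither comparison was called were 7 of the 36: Clec14a, Tek, Flt4, Prox1, Lyve1, Pdpn and Gpihbp1. With median centring, where 66.4% (P4) and 58.1% (P5) of all genes were called, Gpihbp1 and Lyve1 passed as lower in both. Gpihbp1 was at -2.01 and -2.30 (limma adjusted p = 0.00141 and 0.00157), Lyve1 at -1.05 and -1.26 (0.0113 and 0.00745). Pdpn then passed as lower in P5 (-1.33, adjusted p = 0.0027). Gpihbp1 also passed in both with Cy5 alone (-1.50 and -1.78, adjusted p = 0.0189 and 0.0212). Among these 7 members, the probes of Clec14a and Tek differed most from each other. Clec14a, a C-type lectin of sprouting vessels, had -0.24 and -0.13 on WT and het MEC, 0.21 and 0.26 on P4, and 0.08 and 0.20 on P5 by its brighter probe, 0.42 ± 0.12 above MEC in P4 (limma adjusted p = 0.0781) and 0.32 ± 0.12 in P5 (adjusted p = 0.196). With the scanner software's own log ratio the P4 difference passed (0.80, adjusted p = 0.0464). Its other probe, well above background on 2 arrays, lay 0.82 below MEC in P4 and 1.05 below in P5 (differences -0.82 and -1.05). Tek, the angiopoietin receptor Tie2, had 0.26 and 0.31 on MEC, 0.46 on both P4 arrays, and 0.14 and 0.32 on P5 by its brighter probe. The second Tek probe was well above background on all 6 arrays and gave -1.38 in P4 and -1.46 in P5. With the mean over all probes of a gene, Tek passed as lower in P4 (-0.60, adjusted p = 0.0471). The P5 difference passed there too (-0.76, adjusted p = 0.0486), as it did with median centring (-0.44, adjusted p = 0.028). Of the 13 members with several probes well above background on at least 2 arrays, all probes were below MEC for 6 in P4 and for 9 in P5. Both Pdpn probes gave the same picture, at 0.22 and 0.20 in P4 and -0.94 and -1.07 in P5.

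The adjusted calls, though not the sizes of the falls, were lost when either P4 array was left out. The remaining P4 array then carries no spread, so the spread in these fits came from the P5 and MEC arrays alone. The median member difference of P4 from MEC was -1.48 with WT P4 left out and -1.46 with het P4 left out. For P5 against MEC the median stayed at -1.78 in both fits, so the P5 calls were lost without a change in size. Without WT P4, or without het P4, no member and 0 of all genes were called in any of the limma comparisons, although 25 and 27 members had an unadjusted p under 0.05 for P4 against MEC and 31 each for P5 against MEC. Without WT P5, 25 members were called for P4 and 11 for P5 against MEC, where 16% and 1.11% of all genes were. With het P5 or either MEC array left out, 25 to 30 members were called in each, where the share of all genes called ran from 5.1% (P5, without het P5) to 27.9% (P4, without WT MEC).

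Within the 1 slide of sorted cells, endothelial markers tended to be higher in P4 than in P5. In the fit on all 6 arrays, 6 of 36 members were higher in P4 and 1 was lower (limma, adjusted p under 0.05), where 15.1% of all genes were called, 7.58% higher and 7.51% lower. The share of called members was thus close to that of all genes. The median member difference, P4 minus P5, was 0.44 (all genes 0.07), and 31 of 36 were above 0 and 5 below (40.3% of all genes were below). That median was 0.19 without WT P5 and 0.76 without het P5, and it was 0.12 with local background as given and 0.23 with median centring. Both P4 arrays lay above both P5 arrays for 16 members (29.3% of all genes) and below for 3, namely Eng, Vwf and Prox1 (23.8% of all genes).

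Cd34 was 3.80-fold higher in P4 than in P5 (1.92 ± 0.37, limma adjusted p = 0.031), Mmrn2 3.05-fold (1.61 ± 0.37, adjusted p = 0.048), Fli1 2.71-fold (1.44 ± 0.33, adjusted p = 0.0486) and Ptprb 2.27-fold (1.18 ± 0.25, adjusted p = 0.0373). For each of these genes the lower P4 array lay above the higher P5 array, as the values above show. Pdpn (1.17 ± 0.21) and Cldn5 (0.72 ± 0.16) were the other 2 that passed upwards. Eng was 1.97-fold lower in P4 (-0.98 ± 0.13, adjusted p = 0.0129). With local background as given, 5 members passed, where 10.6% of all genes did: Cd34, Fli1 and Pdpn as higher in P4, and Vwf and Prox1 as lower. Ptprb was then 0.29 (adjusted p = 0.388), Cldn5 0.16 (adjusted p = 0.572), Mmrn2 0.99 (adjusted p = 0.164) and Eng -0.84 (adjusted p = 0.0726). Over all probes Ptprb was 0.36 (adjusted p = 0.128). Fli1 and Mmrn2 did not pass when no filter on dim probes was applied (adjusted p = 0.0519 and 0.0515). Vwf, at -0.48 ± 0.12 by its brightest probe (adjusted p = 0.0662), gave -0.98 by its second probe. When only the 4 sorted arrays entered the fit, which has 1 residual degree of freedom, 16 members were higher and 3 lower, against 15.7% and 13% of all genes. Leaving out 1 array puts its population on 1 array, so sizes are given for these fits. Without WT P5 the differences that had passed were smaller and their calls ended. They were 1.31 for Cd34, 1.01 for Fli1, 0.99 for Mmrn2, 0.85 for Pdpn, 0.77 for Ptprb, 0.54 for Cldn5 and -0.89 for Eng. Without het P5 the median member difference was larger (0.76), though the Cldn5 call ended. The calls also ended without WT P4 or het P4, with medians of 0.46 and 0.48. Without either MEC array the median stayed at 0.44.

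**Figure D3:**
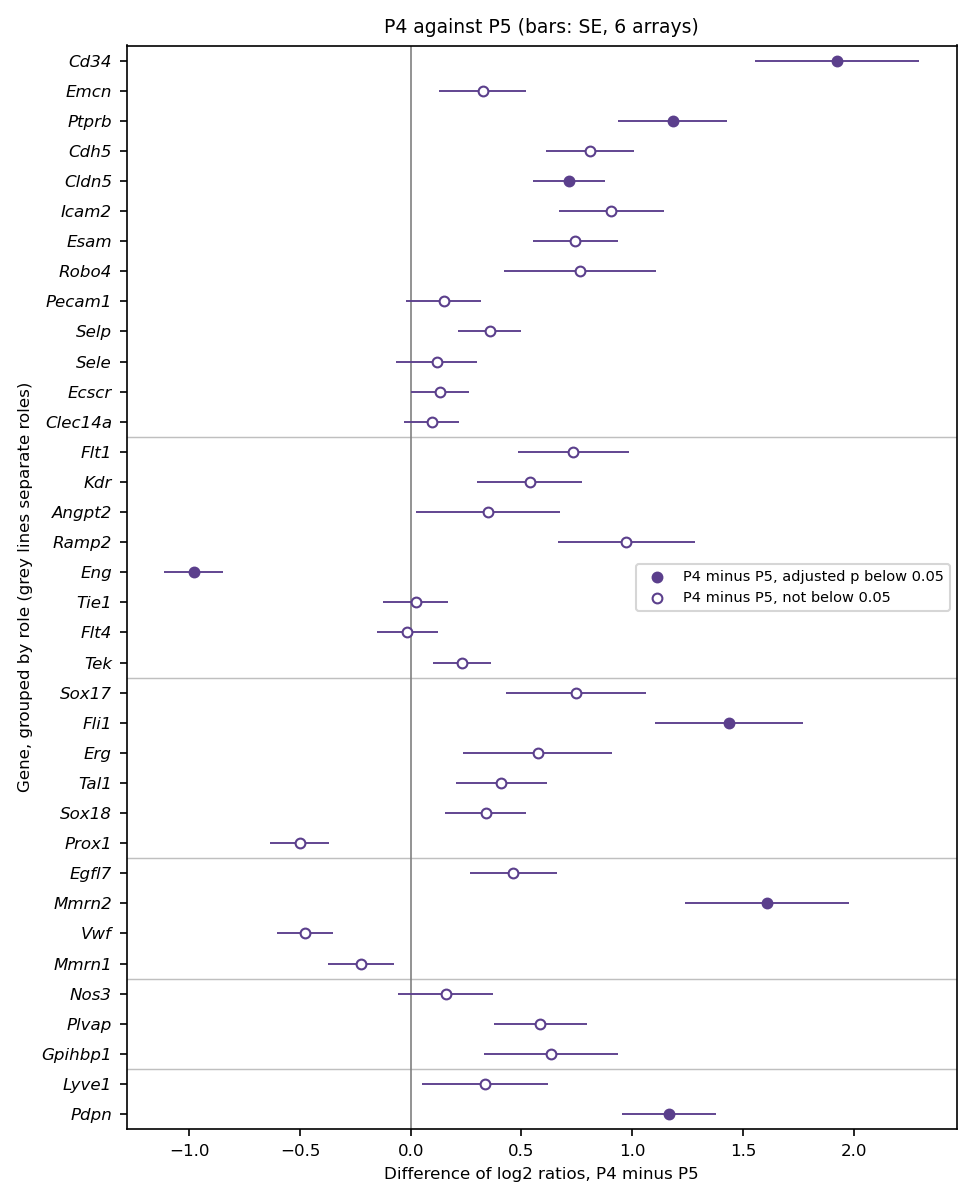
Fitted difference of log2 ratios, P4 minus P5, for each member (bars 1 SE from the limma fit on 6 arrays; filled points have an adjusted p below 0.05). Most points lie to the right of 0, 6 of the filled ones on the right and Eng as the 1 filled point on the left.

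The study's genotype question was then put to the same genes, het against WT. Over the 3 populations 0 members and 0 of all genes were called (0% of 24834) by limma after adjustment. At an unadjusted p under 0.05 there were 7 members, where 14.7% of all genes were. The median member difference, het minus WT, was 0.14 (all genes 0.05), with 10 members below 0 (41% of all genes). The median turned to -0.0090 without either of the P5 arrays and was 0.50 with local background as given, where 0 members were called as well. Het lay above WT in all 3 populations for 10 members, an order that 26.2% of all genes had. The largest fitted differences were 0.80 ± 0.28 for Robo4 and 0.65 ± 0.20 for Flt1 (adjusted p = 0.313 and 0.294). When only the sorted arrays entered the fit, 8 members were called, all higher in het (6.58% of all genes were called higher and 1.18% lower): Robo4 (1.22 ± 0.15, adjusted p = 0.00137), Fli1 (1.01 ± 0.16), Gpihbp1 (0.94 ± 0.16), Mmrn2 (0.93 ± 0.21), Flt1 (0.92 ± 0.16), Sox17 (0.75 ± 0.16), Plvap (0.66 ± 0.15) and Egfl7 (0.63 ± 0.16). The same count, 8, was found when either MEC array was left out, since the remaining MEC array then carries no genotype information.

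Within a single population, het and WT are 1 array each, so differences there have no replicate check and no test, and a member is counted when it is at least 2-fold apart (1 on the log2 scale). Probes printed 10 times on each array gave a spot-to-spot error of 0.132 for such a difference. It was taken from copies within an array, so it leaves out differences of labelling and hybridisation between arrays. It also leaves out the spread between mice. In P5, 7 members were at least 2-fold higher in het and 0 lower, where 3.2% of all genes were 2-fold apart, 2.28% higher and 0.918% lower. Those were Mmrn2 (1.39), Robo4 (1.27), Fli1 (1.19), Ramp2 (1.15), Gpihbp1 (1.14), Flt1 (1.07) and Cd34 (1.04). The other Flt1 probes, from bright to dim, gave 0.57, 0.18, 0.04 and 0.18, and the second Fli1 probe gave 0.51. Over all probes of the gene Flt1 was 0.41 and Fli1 0.85. In all, 33 of 36 members were above 0 in P5, with a median of 0.41 (all genes 0.08). The 3 below 0 were Prox1 (-0.32), Ecscr (-0.20) and Mmrn1 (-0.20).

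In P4 only Robo4, at 1.17, was 2-fold apart, where 4.04% of all genes were, 3.55% higher and 0.484% lower. The P4 median was 0.10 (all genes 0.08), and 24 of 36 members were above 0. Fli1 was the next highest at 0.83. Lyve1 (-0.88) and Pdpn (-0.69) were lowest. In MEC 0 of 36 were 2-fold apart, where 2.25% of all genes were, 1.18% higher and 1.06% lower, and the median was -0.11 (all genes 0.0046). The 3 highest were Eng (0.33), Selp (0.32), whose log2 ratios were 2.87 on WT MEC and 3.19 on het MEC against 1.38 and 1.88 on P4 and 0.96 and 1.59 on P5, and Cldn5 (0.24). The lowest were Angpt2 (-0.77), Mmrn1 (-0.55) and Cd34 (-0.55). Cd34 thus stood higher in het within P5 and lower in het within MEC.

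**Figure D4:**
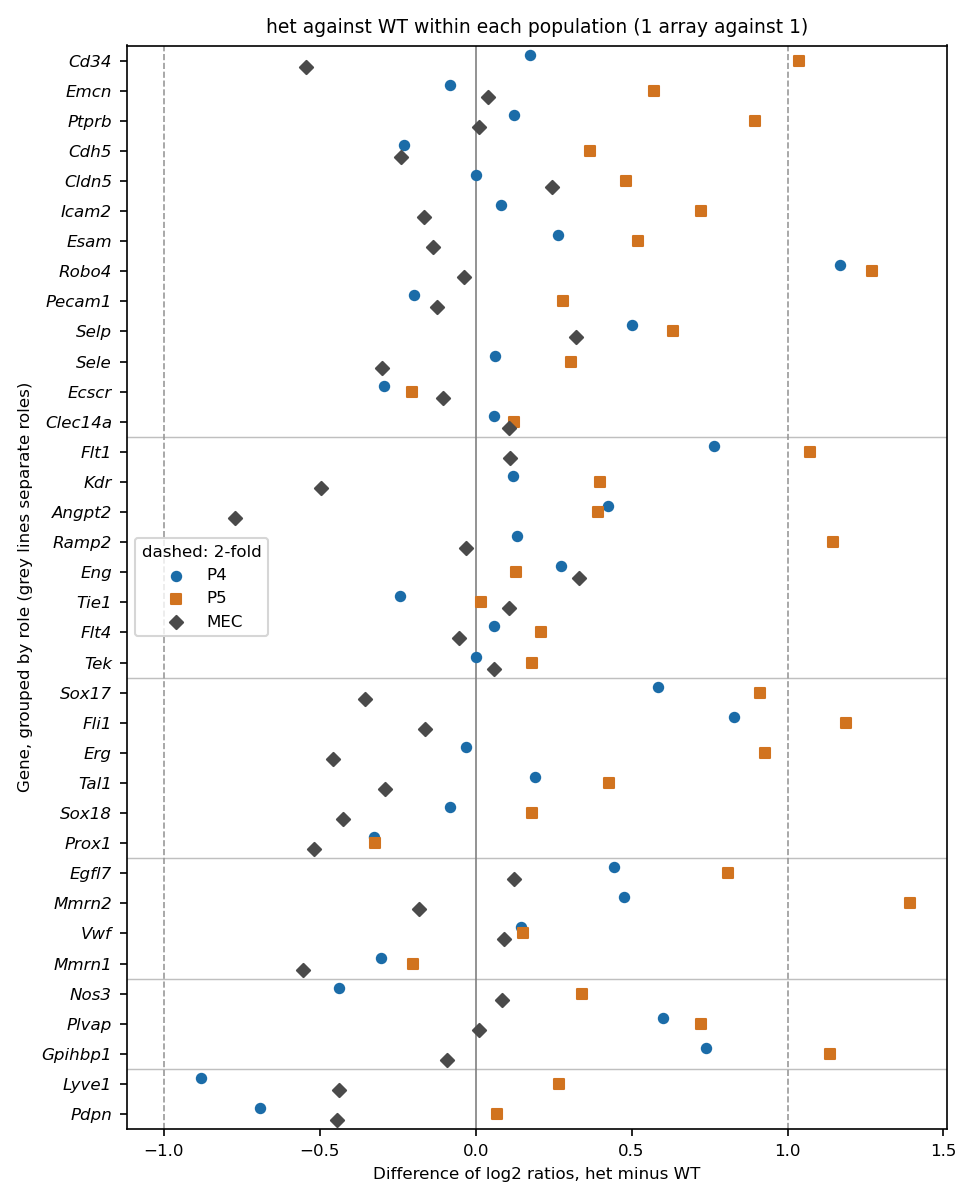
Difference of log2 ratios, het minus WT, within P4 (circles), P5 (squares) and MEC (diamonds) for each member, 1 array against 1 array (dashed lines mark a 2-fold difference). The squares of P5 lie right of 0 for 33 members and the diamonds of MEC left of 0 for 23.

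The genotype differences in P5 and P4 depended on the handling of the scanner's local background. With local backgrounds as given by the scanner, 10 members were 2-fold higher in het P4 (median 0.64), 8 in het P5 (median 0.64) and 2 in het MEC (median 0.39), where 5.9%, 2.54% and 2.03% of all genes were 2-fold higher. With median centring in place of loess, 0 members were 2-fold apart in P4 and P5, where 3.31% and 3.07% of all genes were. Robo4 lay between 0.87 and 1.89 in P4 and between 0.93 and 1.47 in P5 over the alternatives tried.

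Most fibroblast and mural cell markers were lower in the sorted populations as well, and fewer leukocyte markers were. Of 12 fibroblast genes, 9 fell in P4 and 10 in P5 (medians -2.58 and -3.02), led by the matrix proteoglycans Dcn (-3.84 and -6.06) and Lum (-3.86 and -5.09). At the other end were Fn1 (-0.70 and -1.19) and Fbln2 (0.93 and -1.62), which passed in neither population. Of 10 mural cell genes, which mark pericytes and vascular smooth muscle, 7 fell in each, among them the PDGF receptor Pdgfrb (-2.19 and -4.22) and the channel subunit Kcnj8 (-2.14 and -3.40). Mcam, which contractile basal cells can also make, rose in P4 (1.46) and fell in P5 (-2.03). The mural gene Rgs5 was at 0.30 in P4 and -1.24 in P5. Of 8 adipocyte genes 4 and 5 fell, and of 12 leukocyte genes 3 fell in each. Of all genes, 8.52% were called lower in P4 and 4.28% in P5. The T cell gene Cd3e rose in P4 (0.97, limma adjusted p = 0.0389). None of the 6 platelet or 5 erythroid genes fell in either, their medians lay between -0.06 and 0.24, and the platelet integrin Itga2b rose in P4 (0.52, adjusted p = 0.0476). Between 11 and 12 of 12 leukocyte, 9 and 10 of 10 mural and all 12 fibroblast genes were well above background on each array. Of all non-control spots 74.3% to 89.8% were, so these counts do not show which cells gave the RNA. Summed over the 36 endothelial genes, the normalised Cy5 signal was 26501 and 30450 on WT and het P4, 14457 and 21825 on WT and het P5, and 149748 and 130791 on WT and het MEC. The fibroblast sum ran in the order P5, P4, MEC as well, from 14457 on WT P5, equal to the endothelial sum on that array only after rounding, to 378497 on WT MEC.

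By genotype, the lists differed among themselves. In P5, all 12 fibroblast genes were above 0 in het (median 0.59), and the medians were 0.46 for mural, 0.42 for leukocyte and 0.81 for basal epithelial genes, with luminal genes at -0.48, adipocyte at 0.09, platelet at 0.11 and erythroid at 0.16 (all genes 0.08). In MEC the medians were -0.73 for fibroblast, -0.29 for leukocyte, -0.24 for mural, -0.22 for basal and 0.74 for luminal genes, and between -0.03 and 0.02 for adipocyte, platelet and erythroid genes. In P4 they were 0.45 for fibroblast, 0.42 for erythroid, 0.26 for leukocyte, 0.26 for basal, 0.23 for mural, 0.22 for platelet, 0.10 for adipocyte and -0.14 for luminal genes. The part of these other cells in the endothelial differences was not tested.

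**Figure D5:**
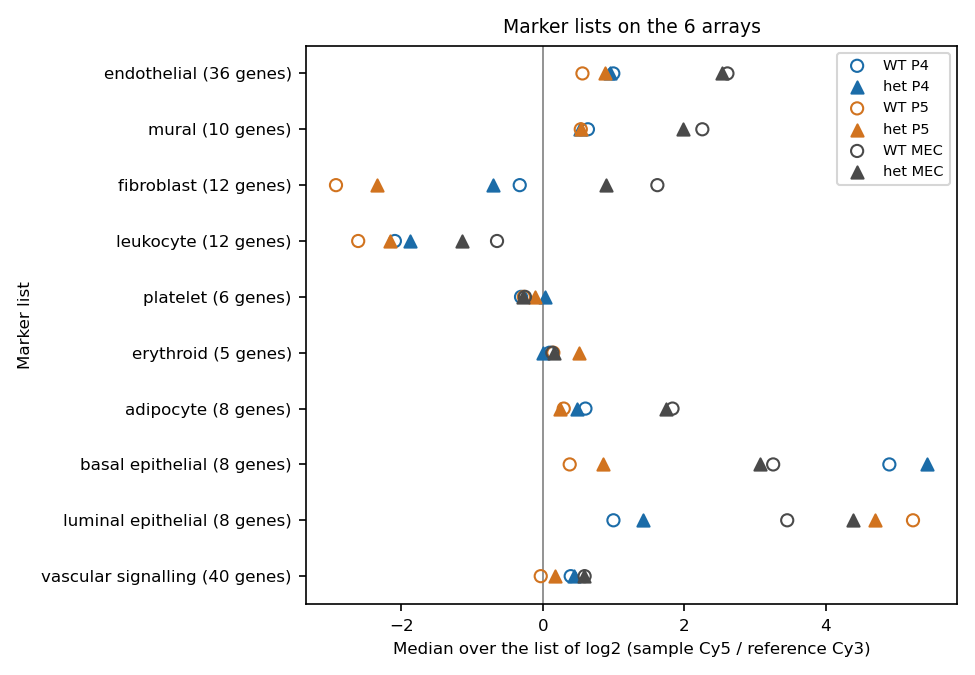
Median log2 ratio of sample Cy5 over reference Cy3 for each marker list (rows) on each array (open circles WT, filled triangles het; blue P4, orange P5, grey MEC). The endothelial, mural, fibroblast, leukocyte and adipocyte medians are highest on the MEC arrays, while basal medians are highest on P4 and luminal medians on WT P5.

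The wider vascular signalling set, 40 genes on the array that are no members, held genes that fell with the endothelial markers and genes that did not. In P4, 15 fell and 5 rose, where 8.52% of all genes were called lower and 9.52% higher. In P5, 18 fell and 0 rose, where 4.28% of all genes were called lower and 2.11% higher. Thbd, the anticoagulant receptor thrombomodulin, had 2.45 and 2.42 on WT and het MEC, 0.40 and 0.12 on P4, and -2.04 and -0.67 on P5, and fell in both (-2.17 ± 0.41 and -3.79 ± 0.41). Nrp2, a VEGF-C and semaphorin co-receptor, had -1.22 and -1.46 on MEC, -3.22 and -2.92 on P4, and -4.71 and -3.86 on P5. At the other end, Tfpi, the tissue factor pathway inhibitor, had 0.26 and -0.30 on MEC, 2.81 and 4.996 on WT and het P4, and 1.70 and 3.50 on WT and het P5. It rose in P4 (3.92 ± 0.67, limma adjusted p = 0.0229), and the P5 difference was 2.62 ± 0.67 (adjusted p = 0.0872). Vegfb, a VEGF ligand for Flt1, had -1.10 and -0.33 on MEC, 0.46 and 2.82 on WT and het P4, and -0.26 and 1.77 on WT and het P5, and rose in P4 (2.36 ± 0.39). Both Tfpi and Vegfb were higher on the het than on the WT array in P4 and in P5, while Vegfb was also higher in het MEC and Tfpi was not.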

How the data were processed

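The authors deposited scanner files with spot intensity in both dyes (mean signal and median local background, not normalized) and a log10 ratio made by Agilent Feature Extraction 9.5.3.1, per the file headers and the submitters' processing notes. A deposited series table holds a log2 ratio per probe; it followed the scanner log ratios with correlations of 0.988 to 1.00 and a slope of 1.00, with column medians from -0.0441 to 0.101. Its direction, Cy5 over Cy3, was taken from the labelled dyes, and no dyes were swapped.

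From the intensities, normexp background correction (offset 50) and loess within each array were run in limma 3.58.1 (R 4.3.3). Local backgrounds of spots that the scanner software marked as background outliers were first replaced by the array's median background. The planned setting was local background as given. It was changed after the normexp parameters were seen: spots with local backgrounds of up to 30168 moved the estimated Cy3 background mean of WT P4 to -559 (-0.827 after replacement), and less on the other arrays. The counts under both settings are given.

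Outlier features were left out, spots of a probe were averaged, and a probe was kept where Cy5 was flagged as well above background on 2 or more arrays. Probes were named through accession (22951 of 41174), current symbol (6659), synonym (3109) or the array's own name (8455). The 3 probes under the synonyms Ang2 and Emilin3 carry accessions of other genes and were left out. The fit had population and genotype as terms on 6 arrays, with 1 array per group, so its spread includes differences of genotype effect between populations and its p-values do not measure the spread between mice. Members of 1 comparison were named by size: the 12 furthest from MEC, all above MEC, the 4 furthest apart in P4 and P5, and the extremes by genotype. The members, lists and tests were chosen with earlier results of these data known. The fit was tested on simulated data. The number of arrays limits precision.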

Additional observations from a re-analysis of the deposited data

Results flagged for a closer look

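The median of the 36 endothelial members, het minus WT, pointed in different directions in the 3 populations: 0.10 in P4, 0.412 in P5 and -0.114 in MEC. These directions depended on the processing: with local background as given the medians were 0.64, 0.64 and 0.39, the MEC median was 0.020 with the scanner log ratio and with the series table, and the P4 median was -0.010 with median centring. Cd34 was the member that moved by at least 0.5 on the log2 scale in opposite directions, 1.04 in P5 and -0.545 in MEC. Each of these is 1 array against 1 array, so the difference between populations was not tested.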

How the results depend on the processing

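No paired analysis was possible because each group has 1 array and the labels carry no replicate numbers. The falls from MEC kept their direction for all 26 members called in P4 and all 28 in P5 under all alternatives. Leaving out 1 array gave 0 to 30 member calls for P4 against MEC, 0 to 30 for P5 against MEC, 0 to 19 for P4 against P5 and 0 to 8 for het against WT over populations, and with P4 and P5 arrays alone the last 2 were 19 and 8. The calls for P4 against P5 were 3 each with the scanner log ratio and the series table (13.2% of all genes in each). With median centring they were 4 (19.4% of all genes). With local background as given plus median centring, an alternative chosen after seeing the data, they were 0 (3.6% of all genes). That alternative also gave 9 calls for het against WT over populations, where 31.3% of all genes were called. Median centring moved the median of all genes to -0.45 (P4) and -0.40 (P5) against MEC. Members 2-fold apart by genotype in P4 numbered 10 with local background as given (6.02% of all genes). There were 2 without subtraction (4.37%) and 2 with offset 0 (6.96%), 1 higher and 1 lower in each. The scanner log ratio and the series table gave 3 each (9.73% and 9.76%), 1 higher and 2 lower. Median centring and Cy5 alone gave 0 (3.31% and 3.68%), and background as given plus median centring gave 8 (36.1%). Members 2-fold apart in P5 numbered 10 without subtraction (3.57%) and 10 with offset 0 (5.9%). The scanner log ratio and the series table gave 10 each (7.54% and 7.53%). There were 8 with background as given (3.1%), 5 with the mean over probes (2.4%) and 4 with Cy5 alone (2.63%). Median centring gave 0 (3.07%), and background as given plus median centring gave 3 (9.37%). In MEC they were 2 with background as given (2.74%). There was 1 each with offset 0 (3.96%), the scanner log ratio (5.57%), the series table (5.57%), median centring (3.14%) and background as given plus median centring (7.73%). The cause was not tested.

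Members that were not called changed sign as follows. Flt4 in P5 was 0.00541 with background as given, 0.00482 with median centring added, 0.18 with Cy5 alone, 0.045 without WT P5 and 0.034 without WT MEC, and in P4 0.049 with median centring and between -0.17 and 0.019 with 1 array left out. Prox1 in P4 was 0.59 with the scanner log ratio and the series table and 0.23 with median centring, and in P5 -0.15 with Cy5 alone and -0.013 over all probes. Pdpn in P4 was -0.48 with median centring, -0.20 with background as given plus median centring and from -0.028 (without WT P4) to 0.47 with 1 array left out. Tek in P4 was -0.33 with median centring, -0.16 with background as given plus median centring and -0.60 over all probes, and in P5 0.19 with Cy5 alone and from -0.13 to 0.019 (without WT P5) with 1 array left out. Clec14a over all probes was -0.20 in P4 and -0.36 in P5. Mmrn2 in P4 was between -1.04 and 0.078 (without WT MEC) with 1 array left out. Low signals limit these values: an offset of 0 in place of 50 widened the member medians to -1.67 in P4 and -2.09 in P5.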
